A study of Homo sapiens with 6 samples.

Results

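The 10 genes described here encode the transcription factors and cofactors that set the red cell program: GATA1, GATA2, KLF1, TAL1, LMO2, LDB1, ZFPM1, GFI1B, NFE2 and BCL11A. They were chosen by gene symbol from a table of 60664 genes, and all 10 were found. All 10 were among the 16652 genes whose mean over the samples was at least 10 normalized counts and that were therefore tested. BCL11A was tested only through its level in the RNH1 KO samples, because it was close to 0 in WT.

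GATA1 and GATA2 are zinc finger proteins that bind the same short DNA motif. GATA2 prevails in hematopoietic progenitors and GATA1 in maturing erythroid cells, where GATA1 takes over many of the sites held by GATA2 and represses the GATA2 gene. ZFPM1 (also called FOG1) does not bind DNA itself and is recruited by GATA1. TAL1, LMO2 and LDB1 form a complex with GATA1 in which TAL1 reads the neighboring E-box, LMO2 is the bridge and LDB1 allows distant sites to meet. KLF1 reads CACCC motifs in globin and other red cell genes and activates BCL11A, which silences the fetal globin genes. GFI1B represses genes through the LSD1-CoREST complex, and NFE2 pairs with small MAF proteins at the globin locus control region.

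The data are polysomal RNA sequencing (polysome-seq) of K562 cells, a human erythroleukemic line, in 3 RNH1 WT and 3 RNH1 KO samples. RNH1 encodes the ribonuclease inhibitor, and the KO cells were made with CRISPR/Cas9. Both groups were grown in the same RPMI medium and received cycloheximide in the wash and lysis before polysomes were separated on sucrose gradients. The study calls the replicates of each genotype independent. The sources used here do not give the number of KO clones or say whether separate cultures or clones are meant, and the p-values measure the spread between these samples. A level in polysomal RNA reflects both how much of a transcript the cells hold and how much of it is on polysomes, and fewer cells with a transcript cannot be told apart from less of it per cell. The study reports reduced polysome levels in K562 cells without RNH1. Normalized counts are relative to the polysomal RNA sequenced in each sample. Higher and lower therefore refer to this relative level and not to an amount per cell.

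Each sample held 34908202 to 46256928 reads in genes, and 3 reads corresponded to 2.58 to 3.40 normalized counts. RNH1, the targeted gene, was at 1865 to 4566 normalized counts in WT and 997 to 1144 in RNH1 KO (log2 fold change -1.44, adjusted p = 0.000338). The labels call the cells lymphoblasts of bone marrow. The summed level of the 8 lymphoid markers was 438 to 620 normalized counts in WT and 662 to 820 in KO, with MS4A1 and IL7R listed at 0, while that of the 17 erythroid target genes was 123223 to 133732 in WT and 120140 to 140699 in KO. Of the 16652 genes tested, 4010 were higher and 4012 lower in KO (48.2% in either direction, and 24.1% in each), at an adjusted p under 0.1 from limma. The split was 6691 higher and 2404 lower with library total scaling and 5095 and 3226 with upper-quartile scaling. Groups did not overlap, in either direction, for 51.1% of the genes.

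The promoter sequences of the factors are shown first because several of these genes are known to be read by the GATA proteins themselves. Windows before RefSeq transcript starts (GRCh38.p14) were found for 8 of the 10 genes, at 15 starts. The 250 bases before each start were searched on both strands for GATA motifs (AGATAA and the variant AGATAG, or TGATAA and the variant TGATAG). Such a motif was present at 1 start each of KLF1, TAL1 and GFI1B, and 22.3% of all 35116 promoters of the same length held one. The motifs are in capitals, on the strand of the gene, and a motif that lies on the other strand appears as its reverse complement.
KLF1, chr19:12887202-12887287, minus strand: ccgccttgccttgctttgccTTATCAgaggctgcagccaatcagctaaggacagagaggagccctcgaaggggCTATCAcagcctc
TAL1, chr1:47232345-47232390, minus strand: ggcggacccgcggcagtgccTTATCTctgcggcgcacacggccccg
GFI1B, chr9:132978558-132978603, plus strand: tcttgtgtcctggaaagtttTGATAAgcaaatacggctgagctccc
The motifs begin 66 and 13 bases before the start in KLF1, 35 bases before it in TAL1 and 116 bases before it in GFI1B. A match to these letters describes the sequence and is not a measured binding site. CACCC motifs (CCACACCC or else CCCCACCC) stood at starts of BCL11A and GATA1, and 12.9% of all promoters held one. E-boxes (CAGCTG, or the variant CAGATG, or its complement CATCTG), present in 24.3% of all promoters, stood at starts of GATA2 and GFI1B.

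The factors come from gene families, so it was checked whether reads of 150 bases could be shared between them. The longest exact stretch common to the canonical transcripts of GATA1 and GATA2 was 21 bases, from codon 232 of GATA1, and that of GFI1B and its paralog GFI1 was 38 bases, from codon 285 of GFI1B. Both lie in coding sequence.
GATA1 and GATA2: cacaagatgaatgggcagaac
GFI1B and GFI1: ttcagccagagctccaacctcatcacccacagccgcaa
No pair compared had a longer stretch than GFI1B and GFI1, so none shared a stretch as long as a read.

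Relative to the polysomal RNA sequenced, 3 of the 10 factors were higher in RNH1 KO (GATA2, ZFPM1 and BCL11A) and 1 was lower (LMO2). The other 6 did not pass the test (GATA1, KLF1, TAL1, LDB1, GFI1B and NFE2). These shares stand beside the 24.1% of all genes called in each direction. Of the 3 higher, only GATA2 and ZFPM1 reached the test on their level in both genotypes, since BCL11A was close to 0 in WT. The median log2 fold change of the 10 was 0.19, beside 0.03 over all genes tested, and the values ran from -1.06 to 5.80. The groups did not overlap for 5 of the 10, which were the 4 that passed and TAL1, beside 51.1% of all genes.

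**Figure D1:**
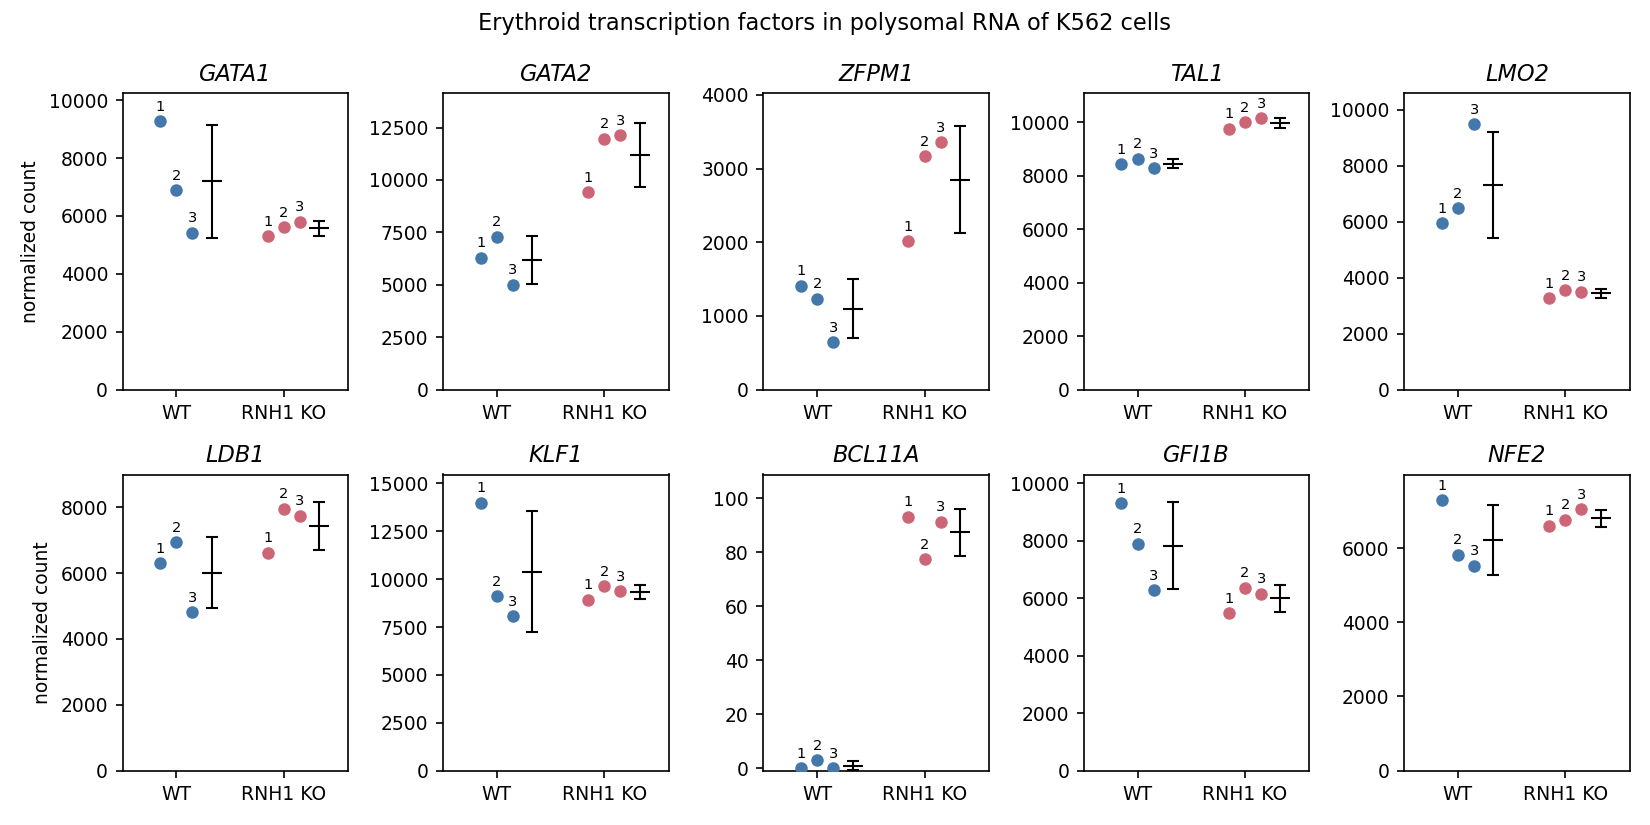
Normalized count (linear axis) of each factor in the 3 WT (blue) and 3 RNH1 KO (red) samples, numbered by replicate, with the mean and SD in black. GATA2, ZFPM1, TAL1 and BCL11A are higher in every KO sample than in any WT sample, LMO2 is lower in every KO sample, and the other 5 overlap.

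**Figure D2:**
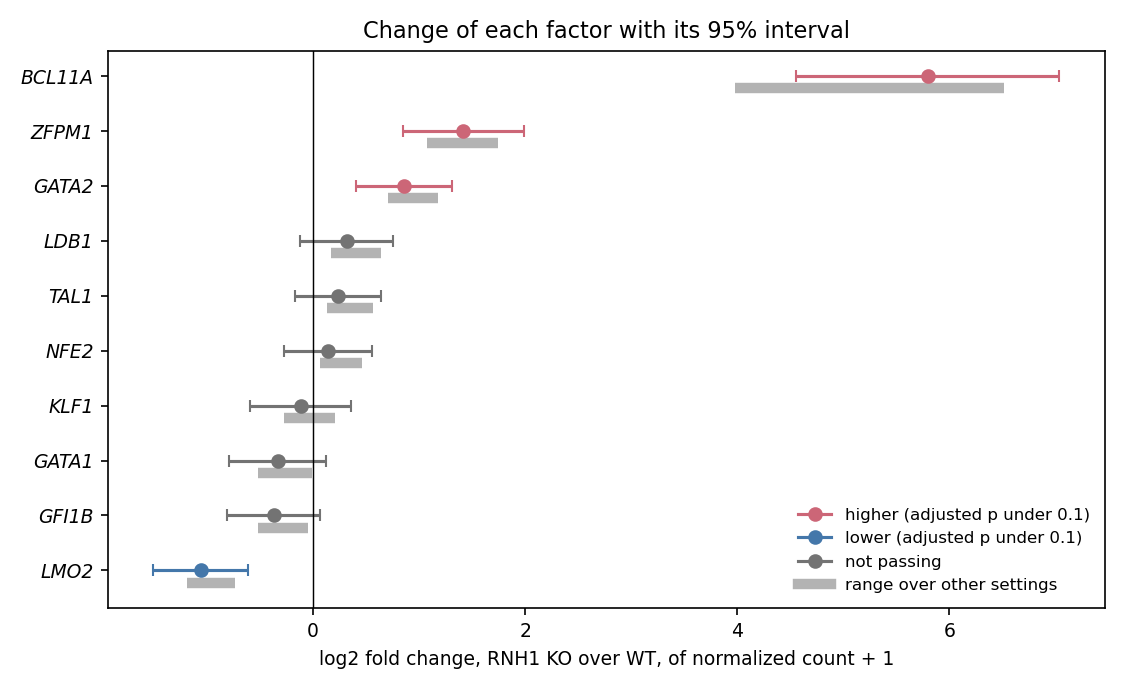
Log2 fold change of RNH1 KO over WT for each factor (points) with its 95% interval from limma (bars), and the range over the other settings of the analysis (gray bands). The intervals of GATA2, ZFPM1, BCL11A and LMO2 leave out 0, and those of the other 6 include it.

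GATA1, the master regulator of erythroid genes, did not pass the test, whereas GATA2 rose. GATA1 (ENSG00000102145, X:48786540-48794311, plus strand, 6 exons) was at 9269.5, 6883 and 5424 normalized counts in WT and at 5292, 5616 and 5807 in KO (values of single samples are given in the order of replicates 1, 2 and 3). The WT samples spread over 1.71-fold and the KO samples over 1.10-fold, and only 1 KO sample lay below the lowest WT sample. GATA1 differed by -0.33 on the log2 scale (standard error 0.22, 95% interval -0.79 to 0.12, adjusted p = 0.235 from limma). The interval therefore leaves room for a fall to 0.577 of the WT level and for a rise to 1.09 times it. Without WT replicate 3, the lowest WT sample, the log2 fold change was -0.52 and passed the threshold (adjusted p = 0.0609), whereas without WT replicate 1, the highest one, it was -0.13 (adjusted p = 0.566). It was -0.01 with library total scaling, which is -0.36 relative to the median of all genes under that scaling (0.35).

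GATA2 (ENSG00000179348, 3:128479427-128493201, minus strand, 6 exons) was at 6291, 7304 and 5008 normalized counts in WT and at 9425, 11960.5 and 12140.2 in KO. All KO samples were above all WT samples, and the mean rose 1.80-fold, from 6201 ± 1151 to 11175 ± 1519 (SD, n = 3 per genotype). This was a log2 fold change of 0.86 (standard error 0.21, 95% interval 0.41 to 1.31, adjusted p = 0.00442 from limma). A noncoding gene on the opposite strand, GATA2-AS1, shares 78 exon bases with GATA2 and was also higher, at 1279 ± 347 in WT and 2458 ± 259 in KO (SD, n = 3 per genotype, log2 fold change 0.97, adjusted p = 0.00202 from limma). The libraries were stranded, but the sources used here do not give the strand setting of the counter, so reads in the shared bases may not be told apart.

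The balance between the GATA factors was shifted toward GATA2 in all 3 KO samples. The ratio of GATA2 to GATA1 normalized counts was 0.679, 1.06 and 0.923 in WT and 1.78, 2.13 and 2.09 in KO. GATA2 counts were thus below or close to those of GATA1 in WT, and above them in each KO sample. On the log2 scale the mean ratio was -0.20 ± 0.33 for WT and 1.00 ± 0.14 for KO (SD, n = 3 per genotype), a difference of 1.19 or 2.28-fold (two-sided p = 0.1 by an exact permutation test, which cannot go lower with 3 samples against 3). Counts depend on transcript length, and per kb of canonical transcript GATA1 stayed above GATA2 in both genotypes, with a geometric mean ratio of GATA2 to GATA1 of 0.378 in WT and 0.863 in KO. The change also went with length over protein-coding genes, split into 5 groups by length. The median log2 fold change was -0.48 in the group of GATA1 and 0.07 in that of GATA2. With this length trend removed from each sample, GATA1 was at -0.09 and GATA2 at 0.82. The ratio was not recomputed on that basis.

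**Figure D3:**
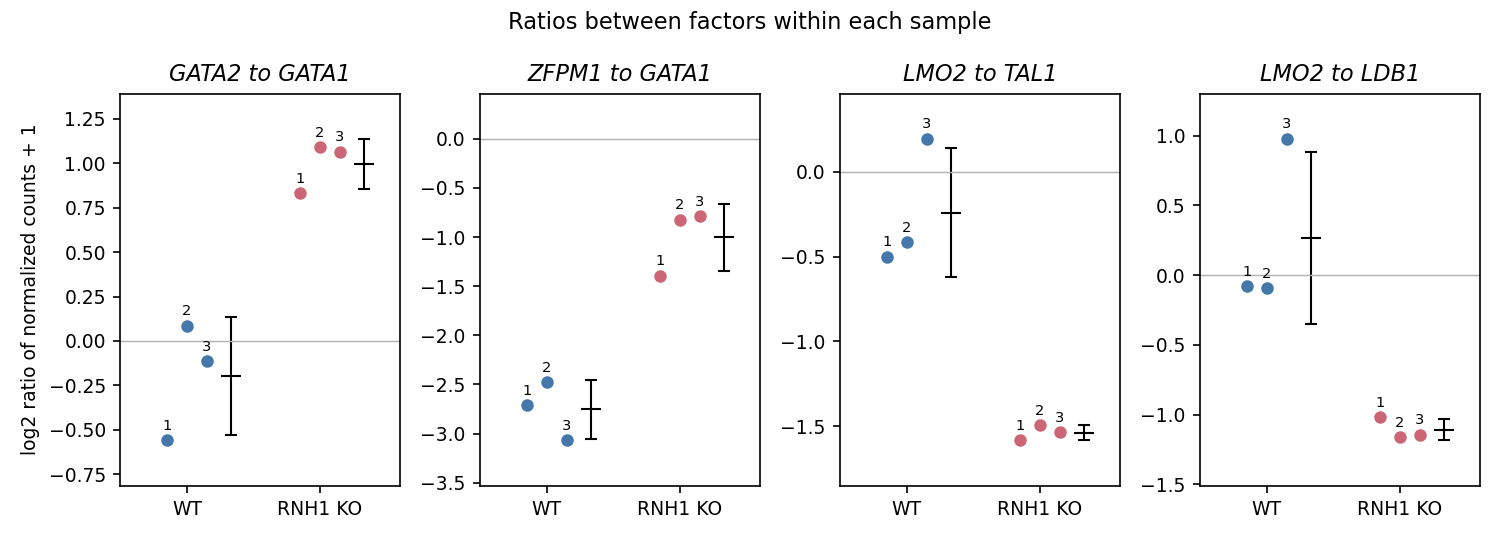
Log2 ratio of the normalized counts (each + 1) of 4 pairs of factors in the 3 WT (blue) and 3 RNH1 KO (red) samples, numbered by replicate, with the mean and SD in black and a gray line at equal counts. In all 4 pairs the WT and KO samples stand apart, and the GATA2 to GATA1 ratio is 1.19 higher in KO. The other 3 pairs were chosen after their values were seen.

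ZFPM1, the cofactor of GATA1, rose more than any other factor with reads in every WT sample. ZFPM1 (ENSG00000179588, 16:88453280-88537031, plus strand, 10 exons) was at 1413, 1232 and 645 normalized counts in WT and at 2014.5, 3169 and 3358 in KO. The mean rose 2.60-fold, from 1097 ± 402 to 2847 ± 727 (SD, n = 3 per genotype), although the lowest KO sample was only moderately above the highest WT sample. The log2 fold change was 1.42 (standard error 0.27, 95% interval 0.85 to 1.99, adjusted p = 0.000631 from limma), and it was 1.07 without WT replicate 3 (adjusted p = 0.00518). Within samples, the ratio of ZFPM1 to GATA1 counts was 0.153, 0.179 and 0.119 in WT and 0.381, 0.564 and 0.578 in KO. This pair was chosen after its values were seen and was not tested.

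ZFPM1 is known to bring the nucleosome remodeling and deacetylase complex (NuRD) to GATA1. Of the 13 NuRD subunits, 8 were higher, 0 were lower and 5 did not pass, and the median log2 fold change was 0.60. Over all genes tested, 24.1% were called in each direction and the median was 0.03. CHD3, a remodeling ATPase of the complex, rose from 2568 ± 581 to 6340.5 ± 912 normalized counts (SD, n = 3 per genotype, log2 fold change 1.32). The scaffold subunits GATAD2B and GATAD2A rose by 1.10 and 0.82 on the log2 scale, and the deacetylase HDAC2 by 0.80. HDAC1 (0.14) and the histone-binding RBBP4 (0.01) and RBBP7 (0.11) did not pass. CHD3, GATAD2B, GATAD2A, HDAC2 and RBBP4 have transcripts of 5714 to 9737 bases, in the longest of 5 length groups of coding genes (median 0.31). HDAC1 (2118 bases) and RBBP7 (2281) belong to a shorter group (median -0.10). The part of length was not tested for these genes.

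The DNA-binding complex that GATA1 forms with TAL1, LMO2 and LDB1 did not move together. LMO2, the bridging protein, fell, whereas TAL1 and LDB1 had values slightly above those of WT that did not pass the test. LMO2 (ENSG00000135363, 11:33858576-33892076, minus strand, 6 exons) was at 5958, 6484.5 and 9489 normalized counts in WT and at 3261, 3558 and 3503 in KO. All 3 KO samples lay below all WT samples, and the mean of 3440.5 ± 158 in KO was 47.1% of the 7310.5 ± 1905 in WT (SD, n = 3 per genotype). LMO2 fell by 1.06 on the log2 scale (standard error 0.21, 95% interval -1.50 to -0.61, adjusted p = 0.000922 from limma). WT replicate 3, the lowest WT sample for 8 of the 9 factors with reads in all WT samples, was the highest one for LMO2, and without it the log2 fold change was -0.85 (adjusted p = 0.00427).

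TAL1 (ENSG00000162367, 1:47216290-47232225, minus strand, 5 exons) had the tightest replicates of the 10, with 8436, 8649 and 8297 normalized counts in WT and 9774, 10008.9 and 10151 in KO. The groups did not overlap, and the KO mean was 118% of the WT mean. The log2 fold change of 0.24 (standard error 0.19, 95% interval -0.17 to 0.64) did not pass (adjusted p = 0.342 from limma, whose standard error also draws on the spread of genes at similar levels). A noncoding gene, ENSG00000226252, lies opposite TAL1 with 845 shared exon bases and reached only 9.56 ± 1.69 normalized counts in WT cells and 4.51 ± 3.26 in KO cells (SD, n = 3 per genotype).

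LDB1 (ENSG00000198728, 10:102106489-102120368, minus strand, 11 exons) was at 6298, 6928 and 4815.5 normalized counts in WT and at 6612, 7958 and 7739 in KO. The groups overlapped through KO replicate 1. For LDB1 the log2 fold change was 0.32 (standard error 0.21, 95% interval -0.12 to 0.76, adjusted p = 0.236 from limma). It passed the threshold without WT replicate 2 (0.43, adjusted p = 0.0774) and with upper-quartile scaling (0.46, adjusted p = 0.0854) or library total scaling (0.64, adjusted p = 0.0169), and it was 0.17 without WT replicate 3 (adjusted p = 0.518). Relative to the median of all genes under each of these scalings, LDB1 was at 0.29.

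The ratio of LMO2 to its partners was lower in every KO sample. LMO2 counts were 0.706, 0.750 and 1.14 times those of TAL1 in WT and 0.334, 0.356 and 0.345 times in KO. They were 0.946, 0.936 and 1.97 times those of LDB1 in WT and 0.493, 0.447 and 0.453 times in KO. Both pairs were chosen after their values were seen and were not tested. Among the other proteins known to join this complex, 10 were tested, of which 5 were higher, 1 was lower and 4 did not pass (median log2 fold change 0.42). Over all genes tested, 24.1% were called in each direction. TCF3, the E-protein that pairs with TAL1, rose from 5818 ± 1119 to 10006 ± 1383 normalized counts (SD, n = 3 per genotype, log2 fold change 0.79). SSBP3, which stabilizes LDB1, rose by 1.04 on the log2 scale, whereas its paralog SSBP2 was the gene that was lower (-0.49, adjusted p = 0.0522 from limma). Also higher were the corepressors ETV6 and CBFA2T3, by 1.18 and 0.73, with CBFA2T3 overlapping between the groups.

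KLF1, which activates the adult beta-globin gene, did not pass the test, and its direction was not fixed. KLF1 (ENSG00000105610, 19:12884422-12887201, minus strand, 3 exons) was at 13982.5, 9112 and 8058 normalized counts in WT and at 8930.2, 9647 and 9375 in KO. The KO samples all lay within the WT range, whose width came from WT replicate 1. The log2 fold change was -0.12 (standard error 0.23, 95% interval -0.59 to 0.36, adjusted p = 0.713 from limma), and it was 0.12 without WT replicate 1. With library total scaling it was 0.21, but -0.14 relative to the median of all genes under that scaling (0.35).

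BCL11A, the repressor of the fetal globin genes, was detected in every KO sample and close to 0 in WT. BCL11A (ENSG00000119866, 2:60450520-60554467, minus strand, 4 exons in its canonical transcript) had 0, 3 and 0 reads in WT and 101, 76 and 106 reads in KO. In normalized counts the WT samples were at 0, 2.98 and 0, at or below the level of 3 reads, and the KO samples at 93.2, 77.5 and 91.3. With the reads pooled per genotype and scaled for depth, the KO to WT ratio was 83.2, with an exact 95% interval of 28.2 to 406 that covers counting error only. The fitted log2 fold change was 5.80 (adjusted p = 1.38e-06 from limma), and since it depends on the added 1 it is no measure of the size. BCL11A passed the filter on the mean only through its KO samples, so this p-value is not independent of that choice. The level in KO was still the lowest of the 10 factors, at 14.3 normalized counts per kb of transcript, beside 5776 for KLF1.

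Of the 11 other factors known to act in globin switching, 7 were higher, 1 was lower and 3 did not pass (median log2 fold change 0.59). Over all genes tested, 24.1% were called in each direction. ZBTB7A, the other direct repressor of the fetal globin genes, rose from 617 ± 168 to 1461 ± 317 normalized counts (SD, n = 3 per genotype, log2 fold change 1.26). NFIA rose by 1.16 on the log2 scale, the fetal RNA-binding protein IGF2BP1 by 1.06 and the maintenance DNA methyltransferase DNMT1 by 1.05. SOX6, a partner of BCL11A, was lower (-0.71). ZBTB7A, IGF2BP1 and NFIA (6437 to 9229 bases) belong to the longest of 5 length groups of coding genes (median 0.31), as does SOX6. DNMT1 (5274 bases) belongs to the next shorter group (median 0.13). The part of length was not tested for these genes. ZBTB7A and IGF2BP1, which act against and for fetal globin, were thus both among the factors that rose.

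Of the 9 globin genes tested, 7 were lower and 0 were higher, beside 24.1% of all genes called in each direction. Their transcripts of 502 to 798 bases belong to the shortest of 5 length groups of coding genes (median -0.48). The part of length was not tested for these genes. The fetal HBG2 went from 9446 ± 2028 to 1897 ± 98.3 normalized counts (log2 fold change -2.29) and HBA2 from 8194 ± 2264 to 1575 ± 357 (-2.36, SD, n = 3 per genotype). HBD fell by 1.91 and HBQ1 by 1.86 on the log2 scale. HBG1, nearly identical to HBG2, was at 7191 ± 2138 and 4978 ± 807 and did not pass (-0.49, adjusted p = 0.107 from limma). Reads of HBG1 and HBG2, and of HBA1 and HBA2, may be split between the copies. HBE1, which K562 cells are known to express, was listed at 0 in all samples, and HBE1, HBG1 and HBG2 overlap other gene models on the same strand.

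GFI1B, a zinc finger repressor needed for red cells and platelets, did not pass the test with all samples. GFI1B (ENSG00000165702, 9:132944000-132991687, plus strand, 7 exons) was at 9312, 7905 and 6286.5 normalized counts in WT and at 5471, 6367 and 6151 in KO. Of the KO samples, 2 lay below the lowest WT sample. The log2 fold change was -0.37 (standard error 0.21, 95% interval -0.81 to 0.07, adjusted p = 0.167 from limma), and without WT replicate 3 it was -0.52 and passed (adjusted p = 0.0524). It shrank to -0.24 without WT replicate 1 (adjusted p = 0.319) and to -0.19 with the length trend removed. With library total scaling it was -0.04, which is -0.40 relative to the median of all genes under that scaling (0.35). TSC1, on the opposite strand with 349 shared exon bases, went the other way, from 2068 ± 171 to 3094 ± 86.4 normalized counts (SD, n = 3 per genotype, log2 fold change 0.58, adjusted p = 0.0186 from limma). Of the 6 LSD1-CoREST subunits through which GFI1B is known to repress, 2 were higher, 0 were lower and 4 did not pass, beside 24.1% of all genes called in each direction. HMG20B rose by 0.74 on the log2 scale and the scaffold RCOR1 by 0.47, whereas the demethylase KDM1A did not pass (0.41).

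NFE2, the erythroid subunit of the NF-E2 dimer, had nearly the same mean in both genotypes. NFE2 (ENSG00000123405, 12:54292111-54301015, minus strand, 3 exons) was at 7292, 5820.1 and 5531 normalized counts in WT and at 6601, 6762 and 7042 in KO. The KO samples all lay between the lowest and the highest WT sample. NFE2 differed by 0.14 on the log2 scale (standard error 0.20, 95% interval -0.28 to 0.56, adjusted p = 0.600 from limma), which leaves out a change of 2-fold in either direction. Of the 7 small MAF and related CNC factors tested, 3 were higher, 0 were lower and 4 did not pass (median log2 fold change 0.25). The share over all genes tested was 24.1% in each direction. MAFG, one of the small MAF partners of NFE2, rose from 3417 ± 368 to 5354 ± 478 normalized counts (SD, n = 3 per genotype, log2 fold change 0.65), while the other small MAF genes, MAFK (0.25) and MAFF (0.22), did not pass. NFE2L1 rose by 0.85 and BACH2, a repressor that also pairs with small MAF proteins, by 1.57 on the log2 scale.

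The levels of the factors were then compared per kb of canonical transcript. In WT, KLF1 was the highest (6438 ± 1959 normalized counts per kb, SD, n = 3), followed by GATA1 (4913 ± 1326), GFI1B (4357 ± 842), NFE2 (3753 ± 570.5) and LMO2 (3513 ± 916). The sample ranges of neighbors in this group overlapped. LDB1 (1941 ± 350.1), GATA2 (1833 ± 340.1) and TAL1 (1823 ± 38.2) followed with overlapping ranges, and ZFPM1 (202 ± 73.9) and BCL11A (0.163 ± 0.282) stood apart below them. In KO, KLF1 remained the highest (5776 ± 224), followed by NFE2 (4107 ± 135), GATA1 (3806 ± 178), GFI1B (3335 ± 260.0), GATA2 (3303 ± 449), LDB1 (2400.4 ± 233), TAL1 (2150.0 ± 41.1), LMO2 (1653 ± 75.7), ZFPM1 (524 ± 134) and BCL11A (14.3 ± 1.40). There GFI1B overlapped with GATA2 and LDB1 with TAL1, and the other neighbors did not overlap. GATA2 went from rank 7 to rank 5, NFE2 from rank 4 to rank 2 and LMO2 from rank 5 to rank 8, and the ranks of the other factors moved by at most 1.

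**Figure D4:**
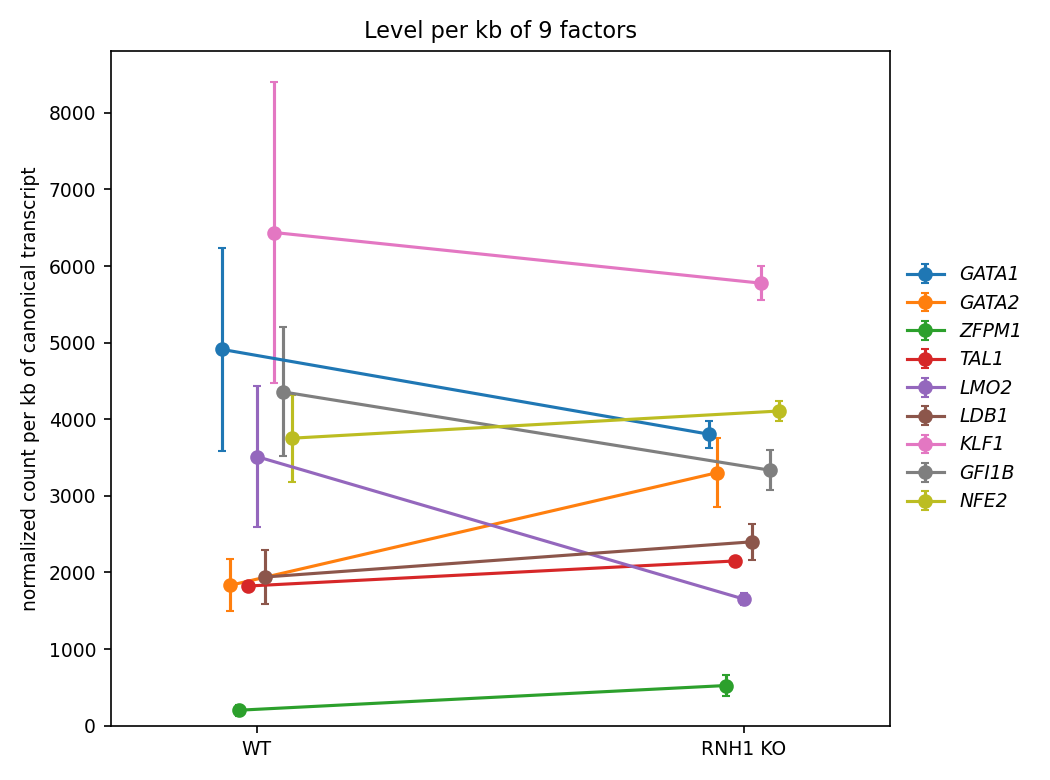
Mean normalized count per kb of canonical transcript (linear axis from 0) in WT and RNH1 KO for 9 factors, with the SD of 3 samples as bars and the 2 genotypes joined by a line. BCL11A, at 0.163 in WT and 14.3 in KO, is not drawn. The lines of GATA2 and LMO2 cross, and KLF1 is the highest in both genotypes.

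The factors differ in transcript length, and over all coding genes the log2 fold change moved with it. Among the 12083 protein-coding genes tested, split into 5 groups by length, the median log2 fold change went from -0.48 in the shortest group to 0.31 in the longest. GATA1 (1464 bases), KLF1 (1613) and NFE2 (1656) belong to the shortest group, and all 3 had values above its median. GFI1B (1798) and LMO2 (2081) lay below the median of the second group, which was -0.10. GATA2 (3383) and ZFPM1 (5432) were 0.79 and 1.29 above the medians of their groups. With the length trend removed from each sample, GATA2 (0.82), ZFPM1 (1.27), BCL11A (5.60) and LMO2 (-0.93) passed as before, GATA1 was at -0.09, KLF1 at 0.10 and TAL1 at 0.13, and NFE2 passed at 0.35 (adjusted p = 0.0978).

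**Figure D5:**
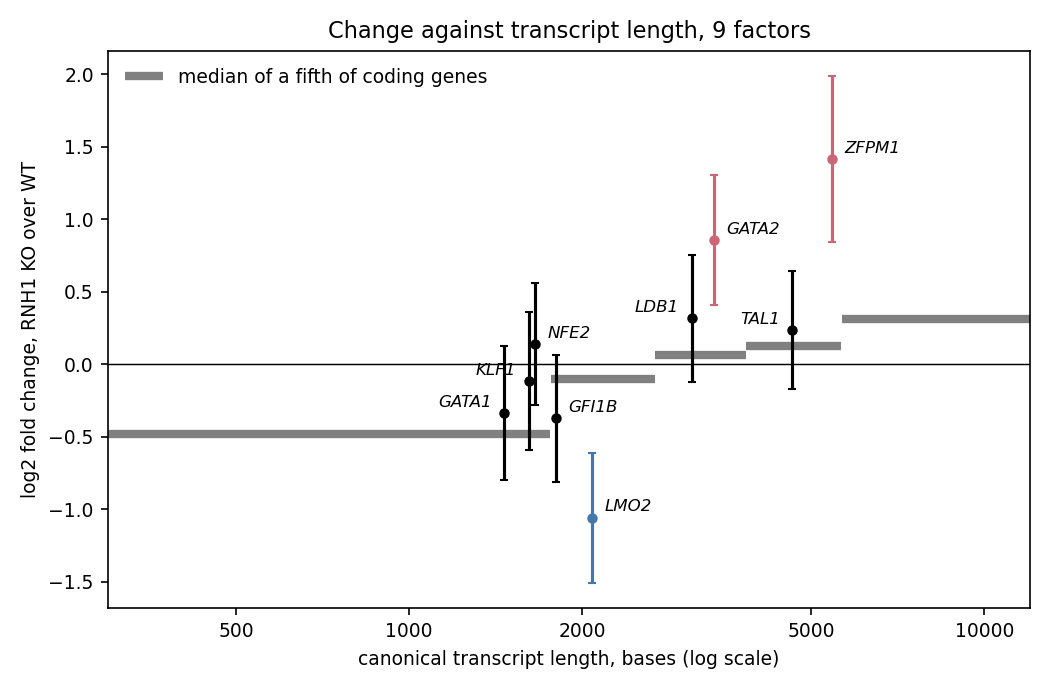
Log2 fold change of RNH1 KO over WT with its 95% interval for 9 factors (red, higher, blue, lower, black, not passing) against the length of the canonical transcript (log scale), with the median of each of 5 length groups of coding genes as gray bars, which end at the edges of the plot. GATA1, KLF1 and NFE2 lie above the median of the shortest group, LMO2 lies below and ZFPM1 and GATA2 above their groups. BCL11A, at 5.80, is not drawn.

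The replicates of the factors spread more widely in WT than in KO. The SD on the log2 scale was larger in WT for all 10 (median 0.32 against 0.09), as it was for 86.1% of all genes tested. WT replicate 3 was the lowest WT sample for 8 of the 9 factors with reads in every WT sample, whereas it was the lowest for 32.2% of all genes. KO replicate 1 was the lowest KO sample for 9 of the 10 factors, beside 34.5% of all genes. The part of these samples in the results was not tested beyond leaving each one out.

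Targets of the factors moved in both directions. Of 17 erythroid genes known as targets of these factors, 4 were higher, 3 were lower and 10 did not pass (median log2 fold change 0.07). Over all genes tested, 24.1% were called in each direction and the median was 0.03. Neither share of the targets was above that of all genes. SLC4A1, the anion exchanger band 3, rose from 54.5 ± 23.4 to 174 ± 9.30 normalized counts (SD, n = 3 per genotype, log2 fold change 1.77). GYPB fell by 1.74 on the log2 scale and AHSP, the chaperone of alpha-globin, by 1.17. ALAS2, the first enzyme of heme synthesis (0.06), and EPOR, the erythropoietin receptor (0.16), did not pass. GYPB belongs to a family of near copies, so its reads may be split among them.

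Many of the factors and markers of other lineages were too low to be tested. Those tested moved in both directions, as did all genes (24.1% called in each direction). Of 8 factors of other blood lineages, 4 were tested, of which CEBPA, a myeloid factor, fell from 1020 ± 152 to 301 ± 28.1 normalized counts (SD, n = 3 per genotype, log2 fold change -1.75) and 3 did not pass. SPI1, the opponent of GATA1 in progenitors, had a log2 fold change of 0.22 and did not pass. Of the 8 megakaryocyte markers, 2 were tested and both were higher. ITGA2B was at 259 ± 96.8 in WT and 393 ± 15 in KO (SD, n = 3 per genotype). The other, ITGB3, was at 8.71 ± 2.92 and 24.3 ± 2.40 and passed the filter on the mean only through its KO samples. The summed level of the 8 markers was 194 to 377 in WT and 406 to 433 in KO, with GP9 and PF4 among those listed at 0. Of the 8 myeloid markers, 1 was lower, 4 did not pass and 3 were not tested, and the summed level was 6790 to 8132 in WT and 6496 to 6826 in KO, with ELANE at 0. Of the lymphoid markers, 2 were higher, among them CD3D (0.90), 1 was lower, 1 did not pass and 4 were not tested. The 6 fibroblast markers summed to 38.5 to 66.8 normalized counts in WT and 70.6 to 79.4 in KO, with LUM at 0. The part of these cell types in the results was not tested.

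The paralogs of the factors were mostly low or did not pass. Of 16 paralogs, 10 were tested, of which 1 was higher, 2 were lower and 7 did not pass, beside 24.1% of all genes called in each direction. ZFPM2, the paralog of ZFPM1, was at 264, 449.5 and 296 normalized counts in WT and at 61.8, 40.8 and 51.7 in KO, so it went the opposite way to ZFPM1 (log2 fold change -2.67). LYL1, the paralog of TAL1 that can replace it in progenitors, did not pass (7471 ± 2522 in WT and 7028 ± 868 in KO, SD, n = 3 per genotype, log2 fold change -0.04). GATA6 (-0.18), GATA5 (0.55), KLF3 (-0.37), KLF2 (-0.19), KLF4 (-0.13) and LMO4 (-0.26) did not pass either. TAL2 was lower (-1.61) at a mean of 30.4 normalized counts in WT and 9.21 in KO, and GFI1 was higher (0.93) at 41.1 and 70.0.

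The genes whose profile over the 6 samples was most like that of GATA1 were sought among the 10895 genes with a symbol and a mean of at least 100, by the root mean square distance between profiles of log2 values, each minus its own mean. The 5 nearest were SLC66A1 (0.039), ICAM4 (0.040), NEU1 (0.042), SYNGR2 (0.043) and TUFM (0.045). All 5 had log2 fold changes between -0.40 and -0.30. Among the factors, GFI1B was the nearest (0.080, rank 22), followed by KLF1 (0.127, rank 133) and NFE2 (0.263, rank 1306), and the farthest were GATA2 (0.631, rank 8990) and ZFPM1 (0.914, rank 10401). The distances are descriptions over 6 samples that share their libraries.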

How the data were processed

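The samples were polysomal RNA from K562 cells, 3 of the RNH1 WT and 3 of the RNH1 KO genotype. Per the submitters' processing notes, the authors mapped reads to GRCh38 with HISAT2 2.2.1, counted them per Ensembl gene with featureCounts 2.0.1 and normalized them with DESeq2 1.36.0. The deposited signal of each sample is its gene count divided by 1 size factor. Divided by the value of 1 read, 100% of the nonzero values of a sample were whole (tolerance 1e-06), so reads could be recovered. The authors' means, fold changes, test statistics and p-values in the same table were not used. The sample columns were all mapped, leaving 0 unmapped.

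Genes with a mean of at least 10 (16652) were tested for genotype alone on log2(value + 1), using limma 3.58.1 (R 4.3.3) with trend and robust options. Calls needed an adjusted p (Benjamini-Hochberg, over all genes tested) under 0.1. Fold changes are on the log2(value + 1) scale and understate the change of low genes. The code was tested on simulated data. The factors, the gene lists and the rule for naming genes were chosen with earlier results of these data known. All 10 factors were named, together with RNH1, up to 4 called genes per list with the largest absolute change and a mean of at least 100, the paralogs with a mean of at least 10 and the 5 genes nearest to GATA1. Other genes (HDAC1, RBBP4, RBBP7, KDM1A, SSBP2, MAFK, MAFF, SOX6, HBG1, HBE1, ALAS2, EPOR, SPI1, ITGB3 and genes that overlap a factor) were added with their values known, as were markers listed at 0. Values of some genes under this rule are not reported here.

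The alternatives were pseudocounts of 0.5 and 5, a mean of at least 50 or no filter, other scalings, edgeR 4.0.16 and DESeq2 1.42.0 on recovered reads, removal of the length trend, a replicate block and leaving out each replicate. The pooled read ratio of BCL11A was added after the data were seen. Lengths and coordinates are those of GENCODE 44 on GRCh38. Figures and tables used Python 3.11.15, numpy 2.4.6, pandas 2.3.3, scipy 1.17.1 and matplotlib 3.10.9.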

Additional observations from a re-analysis of the deposited data

How the results depend on the processing

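GATA2, ZFPM1 and LMO2 kept their direction and passed the threshold under all 18 alternatives. BCL11A passed under the 17 in which it was tested (it fell below a mean of at least 50). In the main fit BCL11A reached the test only through its KO samples, so these passes add no separate support. GATA2 ran from 0.71 to 1.18, ZFPM1 from 1.07 to 1.74, LMO2 from -1.19 to -0.73 and BCL11A from 3.98 to 6.52. Library total scaling moved the median of all genes from 0.03 to 0.35, with 6691 genes higher and 2404 lower (4010 and 4012 as reported) and 6 factors higher, TAL1 (0.56), LDB1 (0.64) and NFE2 (0.47) included. Relative to that median they are at 0.21, 0.29 and 0.12. GATA1, GFI1B and KLF1, at -0.01, -0.04 and 0.21 with this scaling, are at -0.36, -0.40 and -0.14 relative to it. Upper-quartile scaling moved the median to 0.17. The cause was not tested. Without one replicate, 3057 to 4361 genes were lower and 2778 to 4575 higher, and 1 to 3 factors were lower and 3 to 4 higher. The 3 lower factors were LMO2, GATA1 and GFI1B without WT replicate 3. The log2 ratio of GATA2 to GATA1 was 1.01 to 1.33 higher in KO without one replicate. The sign of KLF1 turned under 5 alternatives, and it passed in none of the 18. With library total and upper-quartile scaling, where the sign turned, KLF1 was at -0.14 relative to the median of all genes.

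Samples with the same replicate number did not deviate together (correlations -0.16, -0.19 and -0.27 between WT and KO), so the numbers were not taken as pairs. Between different numbers, the correlation was 0.28 for WT 3 with KO 1, 0.24 for WT 1 with KO 2 and 0.27 for WT 2 with KO 3. The remaining combinations were at -0.10 to -0.02. Whether samples were handled together under other numbers was not tested. With a replicate block, 3 factors were higher and 1 lower, the same 4 genes as without it, and 3243 genes were higher and 3310 lower. BCL11A is limited in depth by its 3 WT reads, and the other 9 factors, with at least 569 reads in each sample, more by the spread of the WT samples.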
